A study of Mus musculus with 16 samples.

Results

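The comparison described here is the response of inguinal white fat (iWAT) to rosiglitazone in mice homozygous for PPARg-K107R, a nuclear receptor with 1 lysine (K) replaced by arginine (R). Its members are 4 of the 16 libraries of the series, chosen by depot, genotype and treatment in the labels: 2 libraries of K107R iWAT from mice given rosiglitazone at 10 mg per kg body weight, and 2 of K107R iWAT from mice given the vehicle, 1% methylcellulose. Gavage lasted 1 week and followed 10 weeks of chow and 19 weeks of high fat diet, which supplied 60% of calories as fat. The groups used for reference are iWAT of wild-type (WT) mice with rosiglitazone or vehicle, and epididymal fat (eWAT) of K107R mice with rosiglitazone or vehicle, each also 2 libraries and all on the same diets and doses. The mutation is whole-body as far as the labels go, with no Cre or transgene named. They give neither sex nor the number of mice behind a library. Whether both libraries of a group are from different animals is not stated either, so the p-values below cover library-to-library spread only, and that spread may be technical.

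PPARg is the nuclear receptor that builds and maintains fat cells: with its partner RXR it binds DNA at genes of lipid uptake, storage and oxidation, and rosiglitazone, a thiazolidinedione, is an agonist that raises their transcription. That lysine accepts the small protein SUMO, a modification known to restrain the receptor's activity. In white fat, thiazolidinediones are known to promote triglyceride storage and mitochondrial and peroxisomal oxidation, to raise some genes of brown fat and to lower inflammatory ones.

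The deposited values are FPKM, fragments scaled to transcript length and to all mapped fragments; read counts were not part of the table and sequencing depth is unknown. The median FPKM was lower in number 2 than in number 1 of every group, and in iWAT their beta-actin transcript Actb lay between 21.7 and 39.5 FPKM, against 771 to 874 FPKM in number 1. Between the 2 K107R iWAT groups, libraries of the same number departed from their group mean in parallel (Pearson's r = 0.792 over 13665 genes, which are not independent), so libraries were compared within a replicate number. Below, the value of number 1 comes first. The depot label fits its patterning genes: in the 4 libraries Shox2 was between 2.75 and 13.6 FPKM and Tbx15 between 1.5 and 5.16 FPKM, while Tcf21 and Wt1, which mark visceral fat, did not exceed 0.0316 FPKM. The defining transcripts of fat cells were abundant: 13 of them summed to 21260 and 19070 FPKM with rosiglitazone, against 15020 and 12070 FPKM with vehicle. Of the 13, 5 rose (Pnpla2, Cidec, Acsl1, Adipoq and Slc2a4) and 3 had negative estimates that did not pass the test (Lep at -0.51, Cfd at -0.37 and Retn at -0.34 on the log2 scale). In whole tissue, more fat cells and more RNA per fat cell cannot be told apart. Lpl, Car3, Scd1 and Fabp4 were left out because the table lists these abundant genes at 0 in whole groups.

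Of 13665 genes tested, 903 rose (6.61%) and 793 fell (5.80%) with rosiglitazone in K107R iWAT, at an adjusted p under 0.05 in limma with the replicate number as a block. All 1696 moved the same way in both replicate pairs, and for 1549 of them the FPKM of the 2 groups did not overlap, which held for 24.5% of all genes tested. The median log2 change of all genes was 0.03. A change of 1 or more on the log2(FPKM + 1) scale was seen in 151 genes that rose and 171 that fell. A fit with no replicate number called 262 genes that rose and 310 that fell, for 572 in all. The total was 740 without rosiglitazone replicate 1, 843 without rosiglitazone replicate 2, 1247 without vehicle replicate 1 and 1032 without vehicle replicate 2. With 2 libraries a group, an exact permutation test of a single value could not go below p = 0.333, so the calls rest on the spread that limma shares across genes and across the 8 groups of the series.

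The 30 leading genes are the 15 that rose and the 15 that fell most, among those called with the same sign in both pairs and a mean of at least 2 FPKM in the higher group, outside the lists of other tissues and the abundant genes listed at 0. The gene that rose most was Sptlc3, a subunit of serine palmitoyltransferase, which starts sphingolipid synthesis (chromosome 2, 139493913 to 139637674 in GRCm38). It was at 54.9 and 39.6 FPKM with rosiglitazone, against 1.68 and 0.961 FPKM with vehicle, a log2 change of 4.38 ± 0.17 (SE, adjusted p = 9.1e-07). Elovl3, an elongase of very long chain fatty acids that is typical of brown fat, had 65.3 and 42.8 FPKM with rosiglitazone and 3.55 and 2.44 FPKM with vehicle (3.77 ± 0.18, adjusted p = 2.8e-06). In both genes even the lower rosiglitazone library stood far above the higher vehicle library. Exons of Elovl3, and those of Fabp3 and Acaa1b below, overlap a gene on the other strand, and whether counting used the strand is not given.

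Other enzymes and carriers of lipid metabolism were among the leading genes. Hsd17b11, a dehydrogenase of lipid droplets, was at 431 and 315 FPKM with rosiglitazone against 73.7 and 42.8 FPKM with vehicle (2.69 ± 0.16, adjusted p = 1.2e-05). Lipg, the endothelial lipase, was at 16.4 and 9.58 FPKM with rosiglitazone against 1.45 and 1.01 FPKM with vehicle (2.61 ± 0.15, adjusted p = 1.1e-05). The fatty acid carrier Fabp3 had 71.0 and 106 FPKM with rosiglitazone and 15.6 and 14.9 FPKM with vehicle (2.44 ± 0.14, adjusted p = 9.1e-06). The groups did not overlap in any of these 3 genes, and Fabp3 was the only one of them with more FPKM in the second rosiglitazone library than in the first. Rbp7, a retinol-binding protein of fat, reached 593 and 841 FPKM with rosiglitazone, against 124 and 149 FPKM with vehicle (2.37 ± 0.10, adjusted p = 1.1e-06). Ephx2, the soluble epoxide hydrolase that breaks down epoxy fatty acids, reached 1270 and 766 FPKM with rosiglitazone, against 267 and 175 FPKM with vehicle (2.19 ± 0.17, adjusted p = 4.7e-05). These 2 were the most abundant of the 15 leading genes that rose.

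Chchd10, a protein of the mitochondrial intermembrane space, had 258 and 129 FPKM with rosiglitazone and 37.6 and 25 FPKM with vehicle (2.53 ± 0.30, adjusted p = 0.00054). Reep6, which shapes the endoplasmic reticulum, had 24.1 and 18.9 FPKM with rosiglitazone and 5.46 and 4.63 FPKM with vehicle (1.89 ± 0.15, adjusted p = 4.7e-05). Both lay clear of the vehicle values in each library. Subunits of ion channels were among the leaders too. Chrna2, a nicotinic acetylcholine receptor subunit known from beige fat cells, was at 27.6 and 22.9 FPKM with rosiglitazone against 6.83 and 5.29 FPKM with vehicle (1.90 ± 0.14, adjusted p = 3.6e-05). Scnn1g, the gamma subunit of the epithelial sodium channel, was at 5.46 and 4.58 FPKM with rosiglitazone against 0.941 and 0.540 FPKM with vehicle (1.8 ± 0.09, adjusted p = 5.2e-06). Btnl4, a butyrophilin-like gene whose reads may be shared with near-identical relatives, was at 6.79 and 8.17 FPKM with rosiglitazone against 0.476 and 0.475 FPKM with vehicle (2.52 ± 0.10, adjusted p = 1.1e-06). In Scnn1g and Btnl4 every vehicle value was under 1 FPKM, where adding 1 before the logarithm makes the change smaller. Mbnl3, an RNA-binding protein, had 13.2 and 2.49 FPKM with rosiglitazone and 1.90 and 0.388 FPKM with vehicle (1.81 ± 0.37, adjusted p = 0.0108), and was the only one of the 30 leading genes in both directions to lose its call without the replicate number (adjusted p = 0.263); it also lost it without rosiglitazone replicate 1 or vehicle replicate 2 (adjusted p = 0.0891 and 0.0759).

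**Figure D1:**
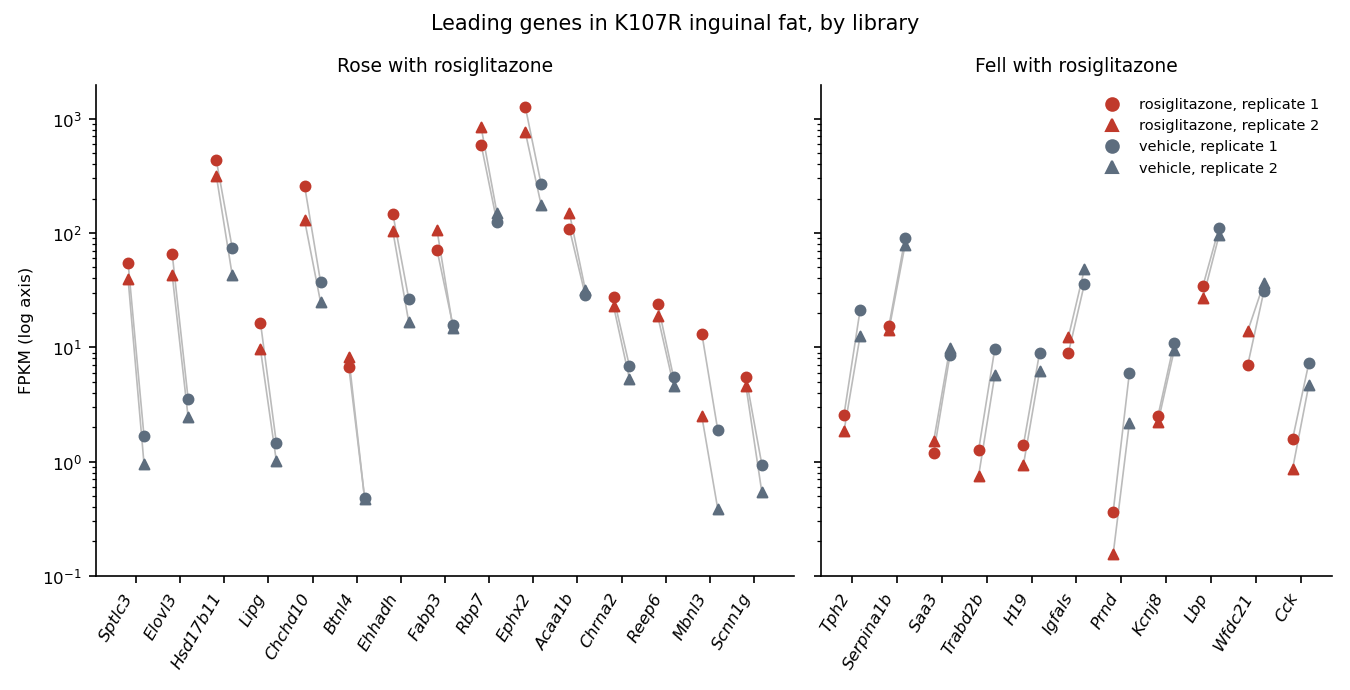
FPKM (log axis) of 15 genes that rose and 11 that fell with rosiglitazone in K107R iWAT; for each gene rosiglitazone is left and vehicle right, circles are replicate number 1, triangles number 2, and lines join libraries of the same number. Sptlc3 stands at 54.9 and 39.6 FPKM with rosiglitazone and at 1.68 and 0.961 FPKM with vehicle, and both lines of every gene shown run the same way.

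PPARg and RXR bind as a pair to a direct repeat of the half-site AGGTCA spaced by 1 base. Promoter sequences from RefSeq (GRCm38.p6, 250 bases before to 50 after the start of transcription) were found for 10 of the 15 leading genes that rose. A pair of AGGNCA with 1 base of any kind between them, searched on both strands, was in none of the 10, and in 0.381% of the 32851 mouse promoters in the table. The half-site AGGTCA alone, on either strand, was in that of Chchd10 and in 16.3% of all promoters. The 3 shown are that promoter, with the half-site (which reads TGACCT on this strand) in capitals, and those of Sptlc3 and Hsd17b11, the 2 genes whose log2 response exceeded the WT one most, which hold neither motif and were picked after their values were seen; they lie at chr10:75932880-75933179 (plus strand), chr2:139493663-139493962 (plus strand) and chr5:104021747-104022046 (minus strand).
Chchd10: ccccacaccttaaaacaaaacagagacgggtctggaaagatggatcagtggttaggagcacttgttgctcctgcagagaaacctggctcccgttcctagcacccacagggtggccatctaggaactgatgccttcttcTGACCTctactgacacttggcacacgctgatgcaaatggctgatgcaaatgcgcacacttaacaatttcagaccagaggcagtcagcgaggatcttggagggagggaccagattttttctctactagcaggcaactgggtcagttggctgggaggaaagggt
Sptlc3: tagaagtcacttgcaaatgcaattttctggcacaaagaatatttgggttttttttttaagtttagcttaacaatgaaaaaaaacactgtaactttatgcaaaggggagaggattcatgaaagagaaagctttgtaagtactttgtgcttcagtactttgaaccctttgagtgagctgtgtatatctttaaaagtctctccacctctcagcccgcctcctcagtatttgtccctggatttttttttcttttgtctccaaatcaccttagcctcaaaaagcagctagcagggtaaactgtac
Hsd17b11: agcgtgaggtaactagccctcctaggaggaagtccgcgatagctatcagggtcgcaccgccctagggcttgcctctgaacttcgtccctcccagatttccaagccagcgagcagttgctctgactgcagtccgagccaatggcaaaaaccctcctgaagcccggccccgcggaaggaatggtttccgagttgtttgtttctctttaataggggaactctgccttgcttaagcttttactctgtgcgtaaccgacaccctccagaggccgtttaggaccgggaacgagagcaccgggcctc
A match is a description of these letters and not a binding site.

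Most genes of fatty acid oxidation rose. Of 22 genes of the carnitine shuttle and mitochondrial beta-oxidation, 17 rose, where 6.61% of all genes tested did, and 0 fell, with a median log2 change of 0.93 against 0.03 over all genes, and all 22 estimates were positive. Hadha, the alpha subunit of the mitochondrial trifunctional protein, was at 255 and 269 FPKM with rosiglitazone against 95.1 and 79.4 FPKM with vehicle (1.58 ± 0.11, adjusted p = 2.3e-05). Its partner subunit Hadhb was at 506 and 395 FPKM with rosiglitazone against 184 and 132 FPKM with vehicle (1.51 ± 0.13, adjusted p = 9.6e-05). Both subunits were higher with the drug in each library, by more than the difference between libraries of a group. Pdk4, the kinase that turns off pyruvate dehydrogenase and spares glucose, had 378 and 223 FPKM with rosiglitazone and 124 and 61.0 FPKM with vehicle (1.73 ± 0.22, adjusted p = 0.00084). Cpt1b, the muscle and brown fat form of the carnitine transferase, had 49.3 and 12 FPKM with rosiglitazone and 11.1 and 3.83 FPKM with vehicle (1.75 ± 0.36, adjusted p = 0.0111). The 2 Cpt1b libraries within each group differed about as widely as the groups did, and its call was lost without rosiglitazone replicate 1 or vehicle replicate 2 (adjusted p = 0.115 and 0.0822).

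Of 20 peroxisomal genes 11 rose and 0 fell (median 0.74). Ehhadh, the bifunctional enzyme of peroxisomal beta-oxidation, was at 146 and 103 FPKM with rosiglitazone against 26.5 and 16.6 FPKM with vehicle (2.50 ± 0.15, adjusted p = 1.2e-05). Acaa1b, a peroxisomal thiolase, was at 109 and 149 FPKM with rosiglitazone against 28.4 and 31.9 FPKM with vehicle (2.05 ± 0.11, adjusted p = 6.6e-06). The groups did not overlap in either gene. A fit without the replicate number left 9 of the 22 mitochondrial and 6 of the 20 peroxisomal genes as risen, and Pdk4 and Cpt1b were not among them (adjusted p = 0.0681 and 0.4). Without rosiglitazone replicate 1, without rosiglitazone replicate 2 and without vehicle replicate 2, 7 of the 20 peroxisomal genes rose in each case.

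Most of the respiratory chain rose too. Of 51 nuclear-encoded subunits of complexes I to V, 41 rose and 0 fell; all 51 estimates were positive, between 0.51 (Atp5g1) and 1.42 (Cycs), with a median of 0.81. Ndufc1, a subunit of complex I, had 220.3 and 198 FPKM with rosiglitazone and 109 and 86.9 FPKM with vehicle (1.09 ± 0.14, adjusted p = 0.00066). Cytochrome c, Cycs, had 171 and 88.1 FPKM with rosiglitazone and 66.8 and 30.4 FPKM with vehicle (1.42 ± 0.23, adjusted p = 0.0032). Ndufc1 was nearly even within each group, whereas Cycs was higher in number 1 of both groups. Of 26 enzymes of the citrate cycle and pyruvate entry, 17 rose and 0 fell (median 0.75). The counts of respiratory chain and citrate cycle genes that rose were 15 and 9 without the replicate number (Cycs had adjusted p = 0.21), 26 and 8 without rosiglitazone replicate 1, and 26 and 9 without vehicle replicate 2.

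**Figure D2:**
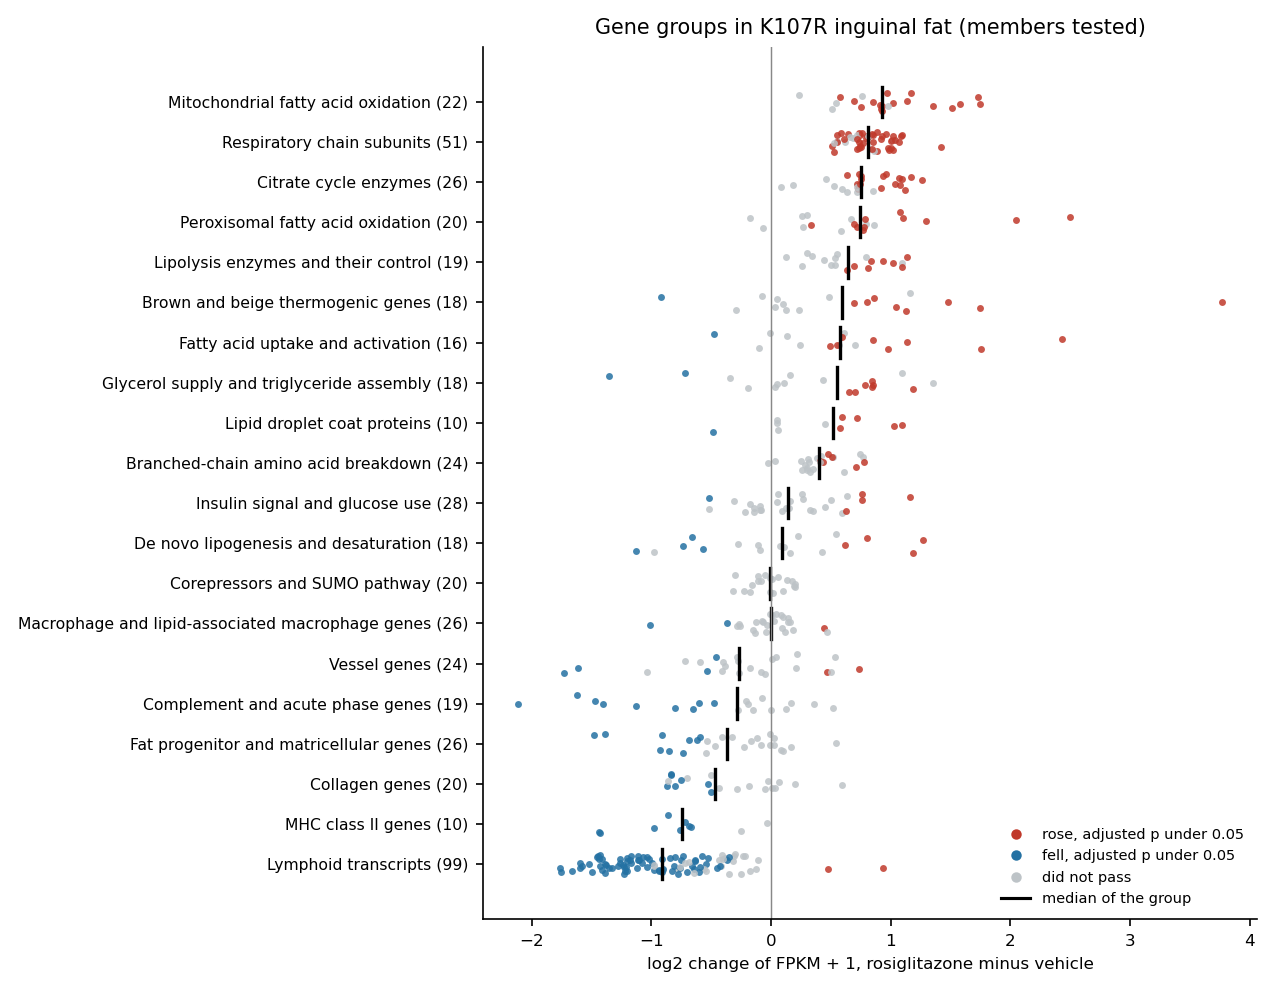
Log2 change of FPKM + 1 with rosiglitazone in K107R iWAT for the tested members of 20 gene groups, 1 point a gene with the number tested in parentheses; red points rose and blue points fell at an adjusted p under 0.05, grey points did not pass, and black bars are medians. The oxidation and respiration groups lie right of 0 with medians of 0.74 to 0.93, the corepressor and macrophage groups lie around 0, and MHC class II and lymphoid transcripts lie left of 0 with medians of -0.74 and -0.91.

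Genes of fatty acid uptake and triglyceride storage rose in part. Of 16 genes of uptake and activation 8 rose and 1 fell (median 0.58). Slc27a1, a fatty acid transporter, was at 831 and 323 FPKM with rosiglitazone against 242 and 96.4 FPKM with vehicle (1.75 ± 0.31, adjusted p = 0.0051). Of 18 genes of glycerol supply and triglyceride assembly 7 rose and 2 fell (median 0.55). Gpd1, which makes glycerol 3-phosphate, was at 2063 and 1892 FPKM with rosiglitazone against 867 and 864 FPKM with vehicle (1.19 ± 0.09, adjusted p = 3.6e-05). The acyltransferase Mogat2 went the other way, at 1.68 and 1.44 FPKM with rosiglitazone against 5.58 and 5.49 FPKM with vehicle (-1.35 ± 0.12, adjusted p = 0.00012). For both, the libraries of a group lay close together and far from the other group. Of 10 lipid droplet proteins 5 rose and 1 fell (median 0.52). Cidec, which enlarges droplets, was at 5854 and 7253 FPKM with rosiglitazone against 2929 and 3498 FPKM with vehicle (1.02 ± 0.10, adjusted p = 0.00018). The droplet coat Plin2 was at 956 and 1276 FPKM with rosiglitazone against 464 and 572 FPKM with vehicle (1.10 ± 0.10, adjusted p = 0.00013). Both were higher in number 2 than in number 1 in each group, and the groups did not overlap. In the fit without the replicate number 2 of the uptake genes and 2 of the droplet genes rose, as against 6 of the 18 assembly genes, Slc27a1 not among them (adjusted p = 0.13). Without rosiglitazone replicate 1 the uptake genes that rose numbered 2, and without vehicle replicate 2 they numbered 3; Slc27a1 was called in neither (adjusted p = 0.0613 and 0.0535).

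Lipolysis genes rose in part as well: of 19 lipases, cofactors and receptors 8 rose and 0 fell (median 0.64), and all 19 estimates were positive. Pnpla2, the adipose triglyceride lipase, had 1954 and 1457 FPKM with rosiglitazone and 906 and 648 FPKM with vehicle (1.14 ± 0.14, adjusted p = 0.00061). Adra2a, a receptor that restrains lipolysis, was low throughout, at 2.16 and 1.51 FPKM with rosiglitazone and 0.523 and 0.424 FPKM with vehicle (0.93 ± 0.08, adjusted p = 9.3e-05). In both genes each rosiglitazone library lay above each vehicle library. Adra2a reached 1 FPKM only in these rosiglitazone libraries, and so was tested only because it was high there. Of the 19, 3 rose without the replicate number, 4 rose without rosiglitazone replicate 1 or without vehicle replicate 2, and 5 without rosiglitazone replicate 2.

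Fatty acid synthesis was split, with 4 of 18 genes higher and 4 lower (median 0.09). Acacb, the acetyl-CoA carboxylase of the mitochondrial membrane, had 42.7 and 39.5 FPKM with rosiglitazone and 17.3 and 15.6 FPKM with vehicle (1.27 ± 0.09, adjusted p = 2.8e-05). The lipogenic factor Srebf1 had 125 and 125 FPKM with rosiglitazone and 70.5 and 72.3 FPKM with vehicle (0.80 ± 0.09, adjusted p = 0.00045). The desaturase Scd2 had 35.5 and 16.3 FPKM with rosiglitazone and 76.8 and 37.6 FPKM with vehicle (-1.13 ± 0.23, adjusted p = 0.0108, and 0.458 without the replicate number). Acacb and Srebf1 were even within their groups, while Scd2 was higher in number 1 than in number 2 of each by about as much as between the groups. Without the replicate number 2 rose and 0 fell, and 1 fell without rosiglitazone replicate 2 or without vehicle replicate 1, Scd2 being called in neither (adjusted p = 0.103 and 0.0775). Of 26 genes of cholesterol synthesis and uptake 0 passed in either direction in limma (median 0.17); 3 had an unadjusted p under 0.05, and 0 passed without the replicate number.

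Of 18 brown and beige fat genes 8 rose and 1 fell (median 0.59), Elovl3 and Cpt1b among those that rose. Cited1, a marker of beige fat cells, was at 4.45 and 4.09 FPKM with rosiglitazone against 1.01 and 0.778 FPKM with vehicle (1.48 ± 0.15, adjusted p = 0.00026). Cox7a1, a cytochrome oxidase subunit of muscle and brown fat, was at 33.9 and 43.3 FPKM with rosiglitazone against 12.8 and 22.5 FPKM with vehicle (1.13 ± 0.18, adjusted p = 0.00283). Ucp1, the uncoupling protein of brown fat, was at 12.4 and 7.25 FPKM with rosiglitazone against 6.74 and 3.34 FPKM with vehicle (0.86 ± 0.24, adjusted p = 0.0485). Cited1 was even within groups, Cox7a1 was higher in number 2 of both, and the lower rosiglitazone value of Ucp1 was only just above its higher vehicle value. The Ucp1 call was lost without the replicate number (adjusted p = 0.545), with a pseudocount of 0.1 (adjusted p = 0.0505) and whichever of the 4 libraries was left out, and 4 of the 18 genes rose without the replicate number.

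Of 28 genes of insulin signalling and glucose use 4 rose and 1 fell (median 0.14). Irs2, an insulin receptor substrate, was at 37.6 and 34.2 FPKM with rosiglitazone against 14.8 and 16.1 FPKM with vehicle (1.17 ± 0.10, adjusted p = 0.0001). Slc2a4, the insulin-regulated glucose transporter, was at 68.0 and 50.5 FPKM with rosiglitazone against 43.3 and 32.9 FPKM with vehicle (0.62 ± 0.13, adjusted p = 0.013, and 0.2 without the replicate number). Of 24 genes of branched-chain amino acid breakdown 6 rose (median 0.40), which was 1 without the replicate number and without either rosiglitazone library, and 2 without vehicle replicate 2. Bckdha, a subunit of the dehydrogenase that commits these acids to breakdown, was at 163 and 189.5 FPKM with rosiglitazone against 101 and 114 FPKM with vehicle (0.71 ± 0.10, adjusted p = 0.00151). Of the insulin genes, 2 rose without the replicate number, without rosiglitazone replicate 1 and without vehicle replicate 2, and Slc2a4 was not called in the last 2 of these (adjusted p = 0.131 and 0.0968). Irs2 and Bckdha lay apart between the groups by more than the difference within either.

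Among 18 adipokines 2 rose and 5 fell (median -0.28). Adiponectin, Adipoq, is counted among the fat cell markers and had 3320 and 2720 FPKM with rosiglitazone and 1923 and 1442 FPKM with vehicle (0.85 ± 0.14, adjusted p = 0.00345). Fgf21, a hormone of the fasting and stress responses, had 15.4 and 14.4 FPKM with rosiglitazone and 7.02 and 6.42 FPKM with vehicle (1.04 ± 0.11, adjusted p = 0.00025). Apelin, Apln, had 1.75 and 0.999 FPKM with rosiglitazone and 5.59 and 3.77 FPKM with vehicle (-1.26 ± 0.18, adjusted p = 0.00158). The 2 groups did not overlap in any of these, Apln being the one that was lower with the drug. Of 15 genes tied to phosphorylation of PPARg in obesity 3 rose and 3 fell (median -0.04), and without the replicate number 2 rose and 0 fell. Cyp4b1, an oxidase of fatty acids, belongs to a list of 20 retinol, epoxide and cytochrome genes of which 7 rose and 3 fell, and was at 502 and 443 FPKM with rosiglitazone against 179.7 and 175 FPKM with vehicle (1.41 ± 0.10, adjusted p = 3.6e-05).

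Pparg itself (chromosome 6, 115360951 to 115490399 in GRCm38) was at 163 and 82.1 FPKM with rosiglitazone and 144 and 65.0 FPKM with vehicle (0.25 ± 0.21, adjusted p = 0.577). Its 2 groups overlap and it did not pass the test. K107R is the change of 1 residue, which a level per gene cannot show, so the genotype label was not checked. Of 13 nuclear receptors and coactivators 1 rose, a share of 7.7%, near the 6.61% of all genes tested. It was the oxysterol receptor Nr1h3, at 72.2 and 100.3 FPKM with rosiglitazone against 56.9 and 67.8 FPKM with vehicle (0.45 ± 0.10, adjusted p = 0.0126). It was not called without the replicate number (adjusted p = 0.506) nor after rescaling by median ratios (adjusted p = 0.195), nor without rosiglitazone replicate 2 or vehicle replicate 2 (adjusted p = 0.135 and 0.0822). Of 20 corepressors, SUMO ligases and SUMO proteases 0 passed in either direction in limma with or without the replicate number, their estimates running from -0.32 (Senp1) to 0.20 (Senp3); 1 of the 20 had an unadjusted p under 0.05.

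Acute phase genes were among those that fell most. Saa3, a serum amyloid made in fat, was at 1.19 and 1.52 FPKM with rosiglitazone against 8.49 and 9.87 FPKM with vehicle (-2.11 ± 0.14, adjusted p = 1.8e-05). Serpina1b, an alpha-1 antitrypsin gene with near-identical copies that can share its reads, was at 15.3 and 14.1 FPKM with rosiglitazone against 89.8 and 78.5 FPKM with vehicle (-2.44 ± 0.11, adjusted p = 1.8e-06). Haptoglobin, Hp, was at 493 and 766 FPKM with rosiglitazone against 1513 and 2371 FPKM with vehicle (-1.62 ± 0.13, adjusted p = 6e-05). The libraries of a group agreed closely for Serpina1b, and in all 3 genes the higher rosiglitazone value was below the lower vehicle value. Lbp, which binds bacterial lipopolysaccharide, had 34.3 and 26.8 FPKM with rosiglitazone and 111 and 95.2 FPKM with vehicle (-1.73 ± 0.11, adjusted p = 2e-05). Serpina3n, a serine protease inhibitor, had 153 and 152 FPKM with rosiglitazone and 427 and 421 FPKM with vehicle (-1.47 ± 0.09, adjusted p = 1.1e-05). Of 19 complement and acute phase genes 9 fell, where 5.80% of all genes tested did, and 0 rose (median -0.28).

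The other genes that fell most have varied roles. Tph2, a tryptophan hydroxylase of serotonin synthesis, was at 2.58 and 1.85 FPKM with rosiglitazone against 21.4 and 12.7 FPKM with vehicle (-2.45 ± 0.15, adjusted p = 1.6e-05). Igfals, the subunit that holds IGFs in a serum complex, was at 8.86 and 12.2 FPKM with rosiglitazone against 36.0 and 48.6 FPKM with vehicle (-1.91 ± 0.15, adjusted p = 4.9e-05). The imprinted noncoding RNA H19 was at 1.40 and 0.938 FPKM with rosiglitazone against 8.99 and 6.22 FPKM with vehicle (-1.98 ± 0.12, adjusted p = 1.6e-05). All 3 were several-fold lower with the drug in both pairs. Trabd2b, a protease that acts on Wnt proteins, was at 1.26 and 0.749 FPKM with rosiglitazone against 9.62 and 5.68 FPKM with vehicle (-2.08 ± 0.18, adjusted p = 8.1e-05). Cholecystokinin, Cck, was at 1.58 and 0.866 FPKM with rosiglitazone against 7.23 and 4.65 FPKM with vehicle (-1.64 ± 0.20, adjusted p = 0.0007). Neither overlapped between groups. Prnd, a relative of the prion protein, and Wfdc21, a small secreted protein, are the last of the leading genes that fell outside spermatid transcripts and Kcnj8, which come below, with log2 changes of -1.90 ± 0.28 and -1.66 ± 0.18 (adjusted p = 0.00177 and 0.00028).

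Stromal genes fell in part. Of 26 progenitor and matricellular genes 9 fell and 0 rose (median -0.37), and of 20 collagen genes 7 fell and 0 rose (median -0.47). Thbs1, thrombospondin 1, was at 26.1 and 18.6 FPKM with rosiglitazone against 79.5 and 50.4 FPKM with vehicle (-1.48 ± 0.16, adjusted p = 0.00032). Tenascin C, Tnc, was at 2.55 and 2.58 FPKM with rosiglitazone against 9.29 and 7.44 FPKM with vehicle (-1.39 ± 0.11, adjusted p = 6.1e-05). Col6a3, a chain of collagen VI, was at 63.9 and 51.7 FPKM with rosiglitazone against 104 and 102 FPKM with vehicle (-0.83 ± 0.11, adjusted p = 0.00106). No rosiglitazone value of these 3 reached a vehicle value. Kcnj8, a potassium channel subunit of pericytes and the gene that fell most of 24 vessel genes (2 rose and 4 fell), was at 2.52 and 2.21 FPKM with rosiglitazone against 11 and 9.44 FPKM with vehicle (-1.73 ± 0.11, adjusted p = 2e-05). The falls numbered 5 of the progenitor and 2 of the collagen genes without the replicate number. With 1 library left out the progenitor count lay between 4 (without rosiglitazone replicate 2 and without vehicle replicate 1) and 9, and the collagen count was 3 without either rosiglitazone library, 4 without vehicle replicate 1 and 5 without vehicle replicate 2. Of the vessel genes, 1 rose and 1 fell without the replicate number, and 2 fell without rosiglitazone replicate 2 or vehicle replicate 1.

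Inflammatory genes moved in small numbers. Of 24 cytokines, chemokines and NF-kB targets 5 fell and 0 rose (median -0.06). The monocyte chemokine Ccl2 was at 6.29 and 3.85 FPKM with rosiglitazone against 18.8 and 10.1 FPKM with vehicle (-1.32 ± 0.23, adjusted p = 0.00411, and 0.109 without the replicate number). Nos2, the inducible nitric oxide synthase, was at 0.912 and 0.845 FPKM with rosiglitazone against 3.15 and 3.09 FPKM with vehicle (-1.13 ± 0.09, adjusted p = 5.9e-05). Without the replicate number 2 of these 24 fell, and 3 fell without any 1 of the libraries other than vehicle replicate 2. Of 26 macrophage genes 1 rose (3.8%) and 2 fell (7.7%), where 6.61% and 5.80% of all genes tested did. Their median was -0.00 and none was called without the replicate number. Their summed level was 3882 and 4059 FPKM with rosiglitazone against 3997 and 3975 FPKM with vehicle. The T cell chemokine Ccl5 also fell, to 34.5 and 31.0 FPKM with rosiglitazone against 86.4 and 69.0 FPKM with vehicle (-1.22 ± 0.16, adjusted p = 0.00104), beside the lymphoid transcripts given next. Of 10 MHC class II genes 8 fell (median -0.74), 4 without the replicate number. Their transactivator Ciita was at 3.28 and 3.31 FPKM with rosiglitazone against 6.99 and 7.96 FPKM with vehicle (-0.98 ± 0.11, adjusted p = 0.00046). In WT iWAT the median response of the 10 MHC class II genes was 0.14. The response was lower in K107R than in WT for 7 of the 10, the direction in which the lymphoid genes given next differed. This list is not counted among the lists of other tissues, and the part of lymph node content in its fall was not tested.

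Transcripts of tissues that lie in or beside the inguinal depot also differed between the groups and are kept apart from the fat cell genes. Of 99 lymphoid genes 72 fell (72.7%) and 2 rose (2.0%), with a median of -0.91, where 5.80% and 6.61% of all genes tested did. The 100 in the table summed to 1313 and 1024 FPKM with rosiglitazone against 1673 and 1216 FPKM with vehicle. The B cell receptor gene Cd79b was at 8.78 and 11 FPKM with rosiglitazone against 29.9 and 33.7 FPKM with vehicle (-1.6 ± 0.14, adjusted p = 0.00012). Of the 99, 43 fell without the replicate number. The inguinal pad holds a lymph node, and how much of it a piece of tissue contains is not given. Of 76 skeletal muscle genes 27 fell (35.5%) and 5 rose (6.6%), with a median of -0.29, so the share that rose was that of all genes tested. The 82 in the table summed to 1264 and 825 FPKM with rosiglitazone against 1485 and 970.1 FPKM with vehicle. Acta1, skeletal alpha-actin, was at 9.48 and 12.1 FPKM with rosiglitazone against 38.3 and 43.1 FPKM with vehicle (-1.83 ± 0.10, adjusted p = 9.1e-06), and the fast myosin Myh1 at 0.606 and 0.601 FPKM with rosiglitazone against 4.63 and 4.22 FPKM with vehicle (-1.76 ± 0.07, adjusted p = 1.1e-06). Myh1 reached 1 FPKM only in these vehicle libraries, and so was tested only because it was high there. A muscle-list gene that rose, the mitochondrial carrier Slc25a34, was at 6.75 and 6.74 FPKM with rosiglitazone against 1.18 and 1.25 FPKM with vehicle (1.8 ± 0.10, adjusted p = 9.1e-06), against the direction of Acta1 and Myh1. Of 29 hair and skin genes 12 fell (41.4%) and 3 rose (10.3%), with a median of -0.40. The 33 in the table summed to 101 and 109.5 FPKM with rosiglitazone against 164 and 177 FPKM with vehicle. Much of that difference lay in Ly6d (mean 14.1 FPKM with rosiglitazone against 50.4 FPKM with vehicle) and Cdsn (mean 6.31 against 28.3 FPKM). The log2 response of Ly6d was -1.79 in K107R and 0.85 in WT iWAT, the directions of Cd79b. That of Cdsn was -2.02 in K107R iWAT, -1.07 in WT iWAT and -0.98 in K107R eWAT. The part of lymph node content in the hair and skin sum was not tested. Without vehicle replicate 1, 17 of the muscle and 4 of the hair genes fell, and without vehicle replicate 2, 21 and 7. The hair root keratin Krt25 was at 0.0241 and 0 FPKM with rosiglitazone against 4.37 and 4.43 FPKM with vehicle (-2.42 ± 0.06, adjusted p = 4.2e-08). Among the iWAT and K107R eWAT libraries it reached 1 FPKM only in these vehicle libraries, which by themselves let it pass the filter on low values.

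Transcripts of sperm heads were seen in the vehicle libraries as well. Tnp1, Tnp2, Prm1 and Prm2, the transition proteins and protamines of spermatids, were listed at 0 in both rosiglitazone libraries and summed to 14.99 and 16.5 FPKM in the vehicle libraries. They were at 0 in WT iWAT with rosiglitazone and at 0.226 and 0.786 FPKM in WT iWAT with vehicle, and summed to 98.2 and 122 FPKM in eWAT of K107R mice with vehicle. All 4 passed the test as genes that fell, and no fold is given against 0. Krt25 and the sum of these spermatid genes were nearly even between the 2 vehicle libraries and at or near 0 in the other iWAT groups. What the dissected pieces held and what the drug did cannot be told apart for the genes of these tissues. The lists of other tissues, which do not include the 4 spermatid genes, hold 123 of the 1696 called genes (11 that rose and 112 that fell), and without these lists and the abundant genes listed at 0 the counts were 892 that rose and 680 that fell, the spermatid genes still among them. Their part in the changes of other genes was not tested.

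**Figure D3:**
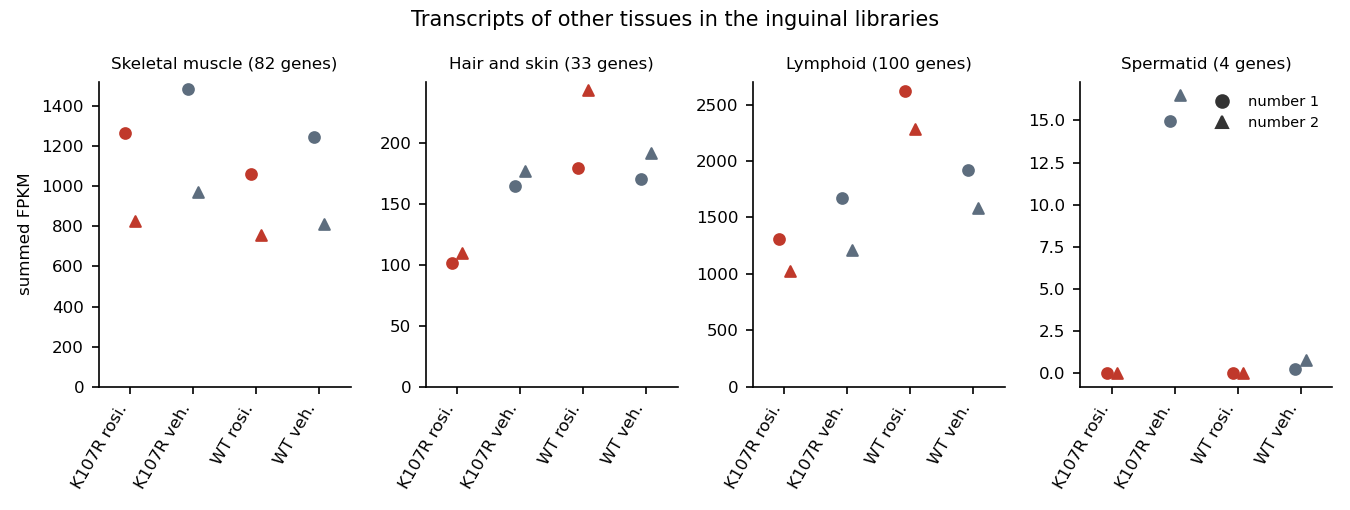
Summed FPKM of skeletal muscle, hair and skin, lymphoid and spermatid transcripts in the 8 iWAT libraries, with rosiglitazone left of vehicle in each genotype; red is rosiglitazone, grey is vehicle, circles are replicate number 1 and triangles number 2. The K107R rosiglitazone libraries are lowest in the hair panel, the WT rosiglitazone libraries are highest in the lymphoid panel, and spermatid transcripts reach 14.99 and 16.5 FPKM in the K107R vehicle libraries and stay under 1 FPKM in the others. Ly6d and Cdsn hold much of the difference between the K107R groups in the hair panel.

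The response was then set against that of WT iWAT, by a test of the difference between the 2 responses. It was higher in K107R than in WT for 50 genes (0.366%) and lower for 293 (2.14%), 2.51% in either direction. For the lower ones, 65 were lymphoid genes and 83 in all belonged to lists of other tissues. The median log2 response of the lymphoid genes was -0.91 in K107R and 0.47 in WT, where their summed level was 2625 and 2287 FPKM with rosiglitazone against 1921 and 1584 FPKM with vehicle. Without the replicate number the counts were 10 and 119. Without K107R rosiglitazone replicate 1 they were 22 and 189, without replicate 2 of that group they were 27 and 183, without K107R vehicle replicate 1 they were 34 and 182, and without its replicate 2 they were 28 and 245. Without WT rosiglitazone replicate 1 they were 23 and 187, without its replicate 2 they were 25 and 172, without WT vehicle replicate 1 they were 25 and 199, and without its replicate 2 they were 25 and 174.

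Of the 50 genes with a higher response in K107R, led by Sptlc3, 39 rose in K107R, where 6.61% of all genes tested did. Both tests use the same K107R libraries, so this overlap is partly fixed in advance. In WT iWAT Sptlc3 was at 3.93 and 2.77 FPKM with rosiglitazone and 0.0917 and 0.0619 FPKM with vehicle, and the K107R response exceeded the WT one by 2.38 ± 0.24 on the log2 scale (adjusted p = 0.00064). This difference belongs to the scale with 1 FPKM added: as ratios of FPKM within a replicate number, rosiglitazone over vehicle was 32.7 and 41.2 in K107R and 42.8 and 44.8 in WT, and with a pseudocount of 0.1 the difference was 0.82 (adjusted p = 0.366). Sptlc3 was higher in K107R than in WT under both treatments. Hsd17b11 was at 90.6 and 80.3 FPKM with rosiglitazone and 55.0 and 39.2 FPKM with vehicle in WT, so that its response was 1.83 ± 0.23 higher in K107R (adjusted p = 0.00217). Fabp3 was at 17.8 and 21.2 FPKM with rosiglitazone and 9.30 and 11.4 FPKM with vehicle in WT (difference 1.58 ± 0.20, adjusted p = 0.00205). Ratios of FPKM for Hsd17b11 were 5.85 and 7.37 in K107R and 1.65 and 2.05 in WT, and for Fabp3 they were 4.56 and 7.11 in K107R and 1.91 and 1.86 in WT, so both genes differed on this scale as well.

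Elovl3 in WT was at 11.2 and 8.74 FPKM with rosiglitazone and 1.74 and 1.04 FPKM with vehicle (difference 1.56 ± 0.26, adjusted p = 0.00895). Scnn1g in WT was at 0.303 and 0.269 FPKM with rosiglitazone and 0.0397 and 0.0270 FPKM with vehicle (difference 1.48 ± 0.13, adjusted p = 0.00038). Lipg and Btnl4 differed by 1.09 ± 0.22 and 0.79 ± 0.14 (adjusted p = 0.0292 and 0.0185). With a pseudocount of 0.1 none of these 4 differences was called (adjusted p = 0.0909 for Elovl3, 0.0673 for Scnn1g, 0.0582 for Lipg and 0.937 for Btnl4), and the ratios of FPKM for Scnn1g, 5.8 and 8.48 in K107R, were no larger than the 7.65 and 9.97 in WT. Those of Btnl4 were close, 14.3 and 17.2 in K107R against 13 and 16.6 in WT. Larger ratios in K107R were seen for Elovl3 (18.4 and 17.5, against 6.42 and 8.42 in WT) and Lipg (11.3 and 9.52, against 4.64 and 5.31 in WT). Adra2a, at 0.433 and 0.390 FPKM with rosiglitazone and 0.467 and 0.323 FPKM with vehicle in WT, differed by 0.92 ± 0.12 (adjusted p = 0.00217), and the muscle-list gene Slc25a34 by 1.02 ± 0.14 (adjusted p = 0.00413, and 0.0794 with a pseudocount of 0.1). Adra2a passed the filter on low values only through the K107R iWAT rosiglitazone libraries, the group in which it was high. Without either of them it was not tested, so the fits that could most change its call are missing. The fits that did test it called the difference. The early response factor Fos was at 33.3 and 24.5 FPKM with rosiglitazone and 14.3 and 11.4 FPKM with vehicle in K107R, and at 10.7 and 9.66 FPKM with rosiglitazone and 11.7 and 8.69 FPKM with vehicle in WT (difference 1.10 ± 0.21, adjusted p = 0.0237).

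In some genes the WT libraries moved the other way or moved alone. S100g, a calcium-binding protein, was at 8.69 and 5.74 FPKM with rosiglitazone and 3.45 and 2.58 FPKM with vehicle in K107R, and at 0.857 and 0.452 FPKM with rosiglitazone and 1.74 and 1.67 FPKM with vehicle in WT (difference 1.74 ± 0.27, adjusted p = 0.00709). Papln, a matrix proteoglycan-like protein, was at 6.25 and 10.6 FPKM with rosiglitazone and 2.46 and 4.30 FPKM with vehicle in K107R, and at 1.49 and 2.78 FPKM with rosiglitazone and 2.64 and 4.14 FPKM with vehicle in WT (difference 1.59 ± 0.20, adjusted p = 0.00205). Both were higher with the drug in K107R and lower with it in WT. The matricellular gene Cyr61 was at 43.2 and 25.4 FPKM with rosiglitazone and 39.8 and 22.5 FPKM with vehicle in K107R, and at 13.2 and 8.81 FPKM with rosiglitazone and 39.7 and 26.1 FPKM with vehicle in WT (difference 1.63 ± 0.32, adjusted p = 0.0278); its K107R values were nearly the same with and without the drug. The call of Fos was lost whichever of the 8 iWAT libraries was left out (adjusted p from 0.053 to 0.126). Those of Cyr61, Lipg and Btnl4 were each lost in 7 of the 8 cases, with adjusted p from 0.0518 to 0.141, from 0.0882 to 0.138 and from 0.0501 to 0.106. Cyr61 stayed called without K107R vehicle replicate 1, Lipg without K107R rosiglitazone replicate 2 and Btnl4 without K107R rosiglitazone replicate 1. That of Elovl3 was lost without K107R rosiglitazone replicate 1, either WT rosiglitazone library or WT vehicle replicate 1 (from 0.0501 to 0.0538). Without the replicate number the differences of Sptlc3, Scnn1g, Adra2a and Slc25a34 remained called, and those of Hsd17b11, Fabp3, Elovl3, Lipg, Btnl4, Fos, S100g, Papln and Cyr61 were not (adjusted p between 0.0607 and 0.527).

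Among genes whose response was lower in K107R, 270 of the 293 fell in K107R, where 5.80% of all genes tested did. As above, the shared K107R libraries partly fix this overlap in advance. Saa3 in WT was at 5.35 and 7.67 FPKM with rosiglitazone and 10.5 and 11.6 FPKM with vehicle, a difference of -1.41 ± 0.19 (adjusted p = 0.00314, and 0.0595 without the replicate number). Serpina1b in WT was at 21.9 and 21.6 FPKM with rosiglitazone and 44.5 and 48.5 FPKM with vehicle (difference -1.38 ± 0.16, adjusted p = 0.0012). H19 in WT was at 0.756 and 0.660 FPKM with rosiglitazone and 1.6 and 0.856 FPKM with vehicle (difference -1.61 ± 0.18, adjusted p = 0.00102). For Serpina1b and H19 the rosiglitazone levels of the genotypes were closer than the vehicle levels, which were higher in K107R. Cck was under 1 FPKM in all 4 WT iWAT libraries (difference -1.66 ± 0.29, adjusted p = 0.0137, and from 0.0648 to 0.0879 without K107R or WT rosiglitazone replicate 2 or WT vehicle replicate 1). The 5 genes outside the lists with the most negative difference were the spermatid genes Tnp1 (-2.48 ± 0.29) and Prm2 (-2.44 ± 0.14), with Irgc1 (-2.08 ± 0.16), Dapl1 (-2.04 ± 0.23) and Acap1 (-2 ± 0.18). Irgc1, a GTPase known from testis, was under 1 FPKM in both WT vehicle libraries, at 1.53 and 1.04 FPKM in the K107R vehicle libraries, and at 1.94 and 2.42 FPKM in WT with rosiglitazone. Acap1 and Dapl1, which lymphocytes are known to express, were lower with the drug in K107R and higher with it in WT, as Cd79b was (difference -2.32 ± 0.20, adjusted p = 0.00038). Krt25 and Myh1, given next, reached 1 FPKM in iWAT only in the K107R vehicle libraries, the group in which they were high. Ciita and Ccl5 differed by -1.17 ± 0.16 and -1.86 ± 0.23, Krt25 by -2.42 ± 0.09, and Myh1 and Acta1 by -1.6 ± 0.10 and -0.81 ± 0.15, all called, though those of Acta1 and Ccl5 were not without the replicate number (adjusted p = 0.491 and 0.0503), nor that of Acta1 without any 1 iWAT library other than K107R vehicle replicate 2 and WT rosiglitazone replicate 1 (from 0.0528 to 0.115).

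Most of the metabolic response was not shown to differ between the genotypes. Of the 22 mitochondrial oxidation, 20 peroxisomal, 51 respiratory chain and 26 citrate cycle genes, 0 differed between K107R and WT in limma (4, 1, 4 and 1 had an unadjusted p under 0.05), and the median responses were 0.93, 0.74, 0.81 and 0.75 in K107R and 0.78, 0.51, 0.62 and 0.62 in WT. Ephx2 in WT was at 569 and 428 FPKM with rosiglitazone and 127 and 86.0 FPKM with vehicle, and its difference between genotypes was -0.04 ± 0.24 (adjusted p = 1). Rbp7 differed by 0.03 ± 0.14, Acaa1b by 0.18 ± 0.16, Gpd1 by -0.21 ± 0.12 and Cidec by 0.11 ± 0.14, each with an adjusted p of 0.903 or more. A p that misses the threshold does not show that the responses are equal.

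**Figure D4:**
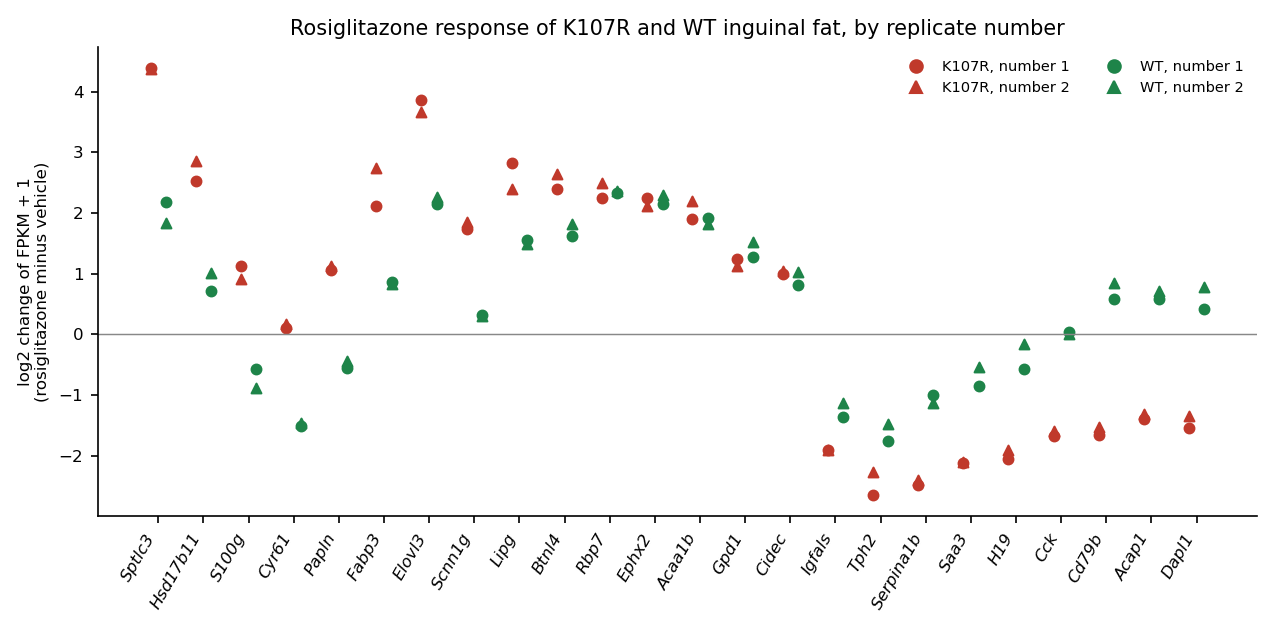
Log2 change of FPKM + 1 with rosiglitazone in iWAT for 24 genes, within each replicate number; red is K107R and green is WT, circles are number 1 and triangles number 2. Sptlc3 lies highest of the genes shown in K107R and well below that in WT, the lymphoid gene Cd79b lies below 0 in K107R and above 0 in WT, and Rbp7, Ephx2, Acaa1b, Gpd1 and Cidec lie at similar heights in both.

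Against K107R eWAT, the response was higher in iWAT for 437 genes (3.20%) and lower for 279 (2.04%), 5.24% in either direction. The median difference of all genes was -0.14 and became 0.03 when libraries were rescaled by median ratios, so differences are best read against it. Without iWAT rosiglitazone replicate 2 the 2 counts were 332 and 129, without its replicate 1 they were 336 and 166, without iWAT vehicle replicate 1 they were 415 and 149, and without the replicate number 304 and 90. With an eWAT library left out, the counts were 118 and 102 without eWAT vehicle replicate 1, 105 and 100 without eWAT vehicle replicate 2, 470 and 195 without eWAT rosiglitazone replicate 2, and 579 and 1227 without eWAT rosiglitazone replicate 1, where the median difference was -0.31. The eWAT K107R rosiglitazone libraries followed the replicate number least (Pearson's r with other groups 0.121 to 0.281), so the common block describes that arm less well. The eWAT comparison is marked by its vehicle libraries, in which 12 epididymis transcripts summed to 4943 and 4477 FPKM, against 0.886 and 9.36 FPKM with rosiglitazone. The 5 genes outside the lists with the most positive difference are known epididymis genes: Defb29, Ces5a, Rnase12, Defb30 and Spag11a. They stayed under 0.2 FPKM in all 4 K107R iWAT libraries, reached 51.3 to 93.2 FPKM in eWAT with vehicle, and differed by 6.25, 6.16, 6, 5.98 and 5.92 on the log2 scale. Without the genes seen in those 2 libraries alone and the lists of other tissues, 241 genes had a higher response in iWAT and 209 a lower one.

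Outside these tissues, Sptlc3 was at 41.6 and 44.0 FPKM with rosiglitazone and 6.46 and 4.48 FPKM with vehicle in eWAT, so that its response was larger in iWAT by 1.6 ± 0.24 (adjusted p = 0.00248). Lipg was at 8.81 and 8.29 FPKM with rosiglitazone and 5.42 and 3.5 FPKM with vehicle in eWAT (difference 1.79 ± 0.22, adjusted p = 0.00068). Chrna2 was at 14.6 and 15.5 FPKM with rosiglitazone and 10.2 and 8.19 FPKM with vehicle in eWAT (difference 1.24 ± 0.20, adjusted p = 0.00425). For all 3 the mean rosiglitazone level was higher in iWAT than in eWAT and the vehicle level was lower in iWAT. Acaa1b, Hadha and Adra2a differed by 0.78 ± 0.16, 0.65 ± 0.15 and 0.81 ± 0.12 (adjusted p = 0.0171, 0.0347 and 0.00187). Adra2a stayed under 1 FPKM in K107R eWAT and, as above, was tested only because it was high in K107R iWAT with rosiglitazone.

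Ucp1 went the other way, at 19.0 and 20.2 FPKM with rosiglitazone and 2.42 and 1.01 FPKM with vehicle in eWAT, and its response in iWAT minus that in eWAT was -2.12 ± 0.35 (adjusted p = 0.00484). Ldoc1, a gene of unsettled role in fat, was at 1.13 and 0.796 FPKM with rosiglitazone and 0.263 and 0.329 FPKM with vehicle in iWAT, and at 9.22 and 8.70 FPKM with rosiglitazone and 0.533 and 0.397 FPKM with vehicle in eWAT (difference -2.17 ± 0.12, adjusted p = 1.8e-06). The neutrophil gene S100a9 was at 6.52 and 6.66 FPKM with rosiglitazone and 5.40 and 3.17 FPKM with vehicle in iWAT, and at 15.2 and 20.3 FPKM with rosiglitazone and 1.6 and 1.24 FPKM with vehicle in eWAT (difference -2.39 ± 0.29, adjusted p = 0.00064). In both genes the eWAT libraries with rosiglitazone stood above all others. The stromal genes Col6a3, Thbs1 and Tnc had a lower response in iWAT than in eWAT, by differences of -0.91 ± 0.16, -1.15 ± 0.23 and -1.09 ± 0.16 (adjusted p = 0.00714, 0.0145 and 0.00249). Rps27, a ribosomal protein gene with many near-identical copies, and the short RNA Mir6392, listed at 0 in some libraries, had the most negative differences among genes outside the lists (-3.07 ± 0.59 and -9.26 ± 1.88) and are uncertain. The Mir6392 call was lost whichever of the 4 iWAT libraries was left out (from 0.0572 to 0.0723), and that of Rps27 without iWAT rosiglitazone replicate 2, iWAT vehicle replicate 1 or eWAT vehicle replicate 1 (from 0.052 to 0.0672). Without the replicate number the differences of Ucp1, Acaa1b, Hadha, Thbs1 and Rps27 were not called (adjusted p between 0.12 and 0.925). Those of Acaa1b and Hadha were lost in 6 of 8 cases with 1 library left out (from 0.0547 to 0.185), all but iWAT vehicle replicate 1 and eWAT rosiglitazone replicate 1. That of Thbs1 was lost without iWAT rosiglitazone replicate 2, iWAT vehicle replicate 1 or either eWAT vehicle library (from 0.0566 to 0.118), that of Col6a3 without either eWAT vehicle library (0.0632 and 0.0575), and that of Ucp1 without eWAT vehicle replicate 2 (0.0568).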

How the data were processed

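RNA of inguinal and epididymal fat was sequenced from 16 libraries in 8 groups of 2; 4 ug of RNA entered each, read at 75 nt. The authors deposited 1 table of FPKM for 14023 genes; per the submitters' processing notes they used CASAVA 1.8.2, TopHat2 2.0.12, Cufflinks 2.2.1 and mm10. Annotation, strand setting and scaling are not given in the sources used here, and with no read counts in the table the depth is unknown, so counting intervals cannot be given.

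The deposited FPKM were analysed as log2(FPKM + 1), which understates the change of low genes. Genes with at least 1 FPKM in 2 or more libraries were kept, less Lpl, Car3, Scd1 and Fabp4. Limma 3.58.1 (R 4.3.3; eBayes with trend) was fitted to all 16 libraries with a mean per group and the replicate number as a block, which leaves 7 residual degrees of freedom, and p-values were adjusted by Benjamini-Hochberg over 13665 genes; all tests are two-sided. Errors after a log2 value are limma's standard errors. The script was tested on simulated data. Deviations of same-numbered libraries from their group means correlated in all 28 pairs of groups (Pearson's r from 0.121 to 0.792). The r was 0.121 to 0.281 in the pairs with eWAT K107R rosiglitazone and 0.501 or more in all others. The numbers, which come from the labels, were taken to pair the libraries. This holds least for eWAT K107R rosiglitazone, an arm of the depot comparison.

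The 4 libraries, the 41 gene lists and the tests were chosen with earlier results of these data known. Named genes are the 15 with the largest change in each direction (5 for each of the other comparisons) under the filters given with the results, up to 4 called members of a list by size of change, or 2 by p where none passed, and Pparg; genes named under several comparisons are given in each. A few genes that this rule names are not reported here. Differences between responses that are printed for other genes were picked after their values were seen. The alternatives tried were no replicate block, a pseudocount of 0.1, all genes with no filter, libraries rescaled by median ratios, a block within each depot, fits without the eWAT K107R vehicle libraries or with iWAT alone, and each K107R iWAT library left out. Leaving out single WT iWAT or K107R eWAT libraries for the comparisons with them, leaving out the eWAT K107R rosiglitazone libraries, the genes of the eWAT K107R vehicle libraries alone, and other tissues in the genotype and depot comparisons were added after seeing the data. Coordinates are those of GRCm38, to which mm10 corresponds; 13591 of the tested symbols matched its annotation. Figures and summaries used Python 3.11.15 with pandas 2.3.3 and numpy 2.4.6.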

Additional observations from a re-analysis of the deposited data

Results flagged for a closer look

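The results here are those in which the rosiglitazone response of K107R iWAT differed from another response by a test of the difference itself (limma, adjusted p under 0.05), as counts and as the log2 difference of each gene printed. Against WT iWAT, 50 genes had a higher and 293 a lower response in K107R, and against K107R eWAT 437 genes had a higher and 279 a lower response in iWAT.

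Higher in K107R than in WT were the responses of Sptlc3 (2.38), Hsd17b11 (1.83), S100g (1.74), Cyr61 (1.63), Papln (1.59), Fabp3 (1.58), Elovl3 (1.56), Scnn1g (1.48), Fos (1.10), Lipg (1.09), Slc25a34 (1.02), Adra2a (0.92) and Btnl4 (0.79). For Sptlc3, Scnn1g and Btnl4 the ratio of FPKM was not clearly larger in K107R than in WT, as given above. Adra2a was tested only because it was high in the K107R iWAT rosiglitazone libraries. Lower in K107R were those of the secreted proteins and RNA Cck (-1.66), H19 (-1.61), Saa3 (-1.41) and Serpina1b (-1.38). The spermatid genes Tnp1 (-2.48) and Prm2 (-2.44), the testis gene Irgc1 (-2.08), the hair keratin Krt25 (-2.42) and the muscle genes Myh1 (-1.6) and Acta1 (-0.81) were lower as well. So were the lymphocyte and antigen presentation genes Cd79b (-2.32), Dapl1 (-2.04), Acap1 (-2), Ccl5 (-1.86) and Ciita (-1.17). Krt25 and Myh1 reached 1 FPKM in iWAT only in the K107R vehicle libraries.

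Higher in iWAT than in eWAT were the responses of Lipg (1.79), Sptlc3 (1.6), Chrna2 (1.24), Adra2a (0.81), Acaa1b (0.78) and Hadha (0.65). The limit on Adra2a holds here too. The epididymis genes Defb29 (6.25), Ces5a (6.16), Rnase12 (6), Defb30 (5.98) and Spag11a (5.92) differed through the eWAT vehicle libraries, the only ones of these 2 responses in which they passed 0.3 FPKM. Lower in iWAT were those of Mir6392 (-9.26), Rps27 (-3.07), S100a9 (-2.39), Ldoc1 (-2.17), Ucp1 (-2.12), Thbs1 (-1.15), Tnc (-1.09) and Col6a3 (-0.91). No group has 4 or more libraries, so no single library could be tested for standing apart.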

How the results depend on the processing

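Without the replicate block 572 genes changed with rosiglitazone in K107R iWAT (262 rose and 310 fell), 129 responses differed from WT (10 higher and 119 lower), and 394 differed from eWAT (90 of them lower). With the block set within each depot, 81 responses were higher than in WT and 509 were lower than in eWAT. Rescaling by median ratios called 2428 genes (1173 rose and 1255 fell), and only 1326 of them were among the 1696 reported. It also gave 102 responses higher than in WT and 658 higher than in eWAT. A fit of the iWAT libraries alone called 3614 genes (2071 rose and 1543 fell) and 630 differences from WT (143 higher and 487 lower). Without the epididymis genes and other tissues, 450 responses differed from eWAT, 241 of them higher. With 1 library left out, the genes changed numbered 740 to 1247, with 329 to 833 that rose and 390 to 652 that fell. The differences from WT then numbered 197 to 273, with 22 to 34 higher and 172 to 245 lower. Those from eWAT numbered 205 (without eWAT vehicle replicate 2) to 1806 (without eWAT rosiglitazone replicate 1), with 105 to 579 higher and 100 to 1227 lower. Single WT iWAT and K107R eWAT libraries were left out after seeing the data. The cause of these shifts was not tested. Of 144 named genes, 85 kept their side of the threshold in every fit that tested them, and none changed direction in any. The same held for 18 of 45 differences from WT and 23 of 47 from eWAT, again with no change of direction. FPKM without read counts leave the depth behind low values unknown, and values under 1 FPKM depend on the pseudocount.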

Other observations

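Other gene groups of K107R iWAT moved little with rosiglitazone. Of 25 genes of the integrated stress and unfolded protein responses 4 rose and 0 fell (median 0.07): Fgf21, the asparagine synthetase Asns (0.79, adjusted p = 0.00424), the glutathione-degrading enzyme Chac1 (0.62, adjusted p = 0.0061) and the serine pathway enzyme Psat1 (0.58, adjusted p = 0.0453). Over all genes tested 6.61% rose and 5.80% fell, and the next 3 lists did not exceed these shares. Among 19 clock genes 1 rose (5.3%), the repressor Nr1d1 (0.35, adjusted p = 0.0301), and 1 fell (5.3%). Of 24 cell cycle genes 1 fell (4.2%), the proliferation marker Mki67 (-0.59, adjusted p = 0.022). Of 27 interferon response genes 1 fell (3.7%), Zbp1 (-0.56, adjusted p = 0.0454). In each of the last 2 lists 22 estimates were negative, but members of a list are not independent. Limma without the replicate number kept 2 of the 4 stress genes, and none of the cell cycle or interferon genes. With 1 library left out, Asns and Chac1 lost their calls without rosiglitazone replicate 1 (adjusted p = 0.0571 and 0.0801), Psat1 and Mki67 in 3 of 4 cases, and Nr1d1 and Zbp1 in all 4.

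Of 19 immediate early genes Fos rose and Egr1 fell (-0.67, adjusted p = 0.0354). That was 5.3% in each direction, under the 6.61% and 5.80% of all genes tested. Of 19 mast cell and neutrophil genes 1 rose (5.3%) and 3 fell (15.8%), none of them called without the replicate number. The calls of Egr1, and of Efemp1 below, were lost without the replicate number and without either rosiglitazone library or vehicle replicate 1 (adjusted p from 0.0945 to 0.891). Of 11 mesothelium genes Lrrn4 rose (1.30, adjusted p = 0.00033) and Efemp1 fell (-0.85, adjusted p = 0.0462), which was 9.1% in each direction. In limma 0 of 16 peripheral nerve, 0 of 14 simple epithelium, 0 of 12 epididymis, 0 of 5 erythrocyte and 0 of 12 depot marker genes passed, with 1 nerve gene and none of the others at an unadjusted p under 0.05. The 12 epididymis genes summed to at most 0.102 FPKM in the 4 libraries. They passed the filter on low values through eWAT libraries alone, so their lack of calls says nothing of a response. Of the 13 fat cell markers 5 rose and 0 fell (median 0.45).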
